A study of Mus musculus with 31 samples.

Results

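Epididymal fat of lean adult male C57BL/6JRj mice was compared between 8 mice exposed to intermittent hypoxia (IH) for 14 days and 8 mice exposed to normoxia (NO) for the same time. All 16 fat arrays of the series' 31 were used and the liver arrays were set aside for the comparison. IH mice breathed short alternating phases of low oxygen and air through their daily sleep period, and NO mice received the same cycles with air in both phases. Mice were killed on the day after the last exposure, and 250 ng of RNA per sample went to bead arrays that read 25697 probes. The strain, sex and cycles come from the study's methods, which describe livers and give no separate account of the fat. Intensities are given on a log2 scale after background correction and quantile normalization over the fat arrays alone. The deposited values already had nearly the same distribution on all 31 arrays, liver included. Probes detected (p-value under 0.01) on 8 or more fat arrays were kept, which left 11486 of 25697 probes and 8207 genes. Where a gene had several kept probes, it was read from the brightest and the others were then compared with it.

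Epididymal fat is a visceral depot of white adipose tissue attached to the epididymis. Its adipocytes store triglyceride in a single lipid droplet, release fatty acids by lipolysis, and secrete hormones such as leptin and adiponectin, while the tissue between them holds preadipocytes, vessels, macrophages and other immune cells. Low oxygen stabilises the hypoxia-inducible factors, which drive genes for glucose uptake, glycolysis and vessel growth. The circadian clock also runs in fat, with the activator pair CLOCK and BMAL1 (Bmal1 is listed as Arntl) switching on the repressors PER, CRY and REV-ERB and output factors such as DBP.

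Adipocyte markers were bright on all 16 fat arrays. On IH 19 and IH 16, however, their mean (9.79 and 11) lay below that of epididymis markers (13.84 and 12.50). The adipocyte marker list, 17 of whose 20 genes were measured, had a mean log2 intensity between 9.79 and 11.67 on the IH arrays and between 11.82 and 12.15 on the NO arrays. Between 10775 and 12340 probes were detected on the IH arrays and between 10261 and 11932 on the NO arrays. RNA of the epididymis was also read: of 35 epididymis marker genes 6 were measured, and 34 marker probes were detected on array IH 19, 28 on IH 16 and 16 on NO 4, against 9 or fewer on each of the other arrays. The signal was not confined to these 3: the mean of the 6 markers was 13.84 on IH 19, 12.50 on IH 16 and 10.67 on NO 4, from 8.14 to 9.10 on IH 15, 20, 21 and 22, 5.84 and 6.00 on IH 17 and IH 18, and from 5.62 to 7.61 on the other NO arrays. All 6 lay above 0 in IH minus NO, with a median of 1.96, and of 1.23 without the 3 arrays. A marker could pass the detection filter through the group where it was high. The shared sign and the median are therefore partly set by the filter. IH 19 also stood apart in its mean correlation with its own group (0.89, against 0.93 to 0.95 for the other IH arrays and 0.96 for each NO array). The IH arrays lay on chips 5 and 6 and the NO arrays on chips 3 and 4, so that no chip held fat of both groups, and chip and exposure cannot be told apart. The study's methods house several mice per cage and expose them in those cages, so cage mates shared an exposure. The labels name separate samples but not cages or litters. The p-values treat the samples as independent and measure only the spread between them.

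A large share of the fat transcriptome differed between IH and NO. At an adjusted p under 0.05 (limma, Benjamini-Hochberg over all kept probes), 3898 of 11486 probes were called (33.9%), 2131 higher (18.6%) and 1767 lower (15.4%) in IH fat. By the brightest probe, 2680 of 8207 genes were called (32.7%), 1479 higher (18.0%) and 1201 lower (14.6%). The median log2 difference of all genes was 0.11, and the values below are not corrected for it. The SAM statistic that the study's methods name called 3880 probes. Without the 3 arrays with epididymis markers (IH 16, IH 19 and NO 4), a choice made after the data were seen, 2042 probes were higher and 1759 lower. Of the probes kept in both fits, 1598 of 2125 higher calls and 1605 of 1766 lower calls were shared.

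The sizes of the differences were uneven. Of the probes called higher, 1971 differed by under 1 on the log2 scale, 156 by 1 to 2 and 4 by 2 or more. Of the probes called lower, 775 differed by under 1, 633 by 1 to 2 and 359 by 2 or more. The groups did not overlap on any array for 264 probes higher in IH (2.30% of the probes tested) and for 1072 probes lower in IH (9.33%). The plot of the difference against the mean level shows the large falls over most of the range of brightness, with few rises of the same size.

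**Figure D1:**
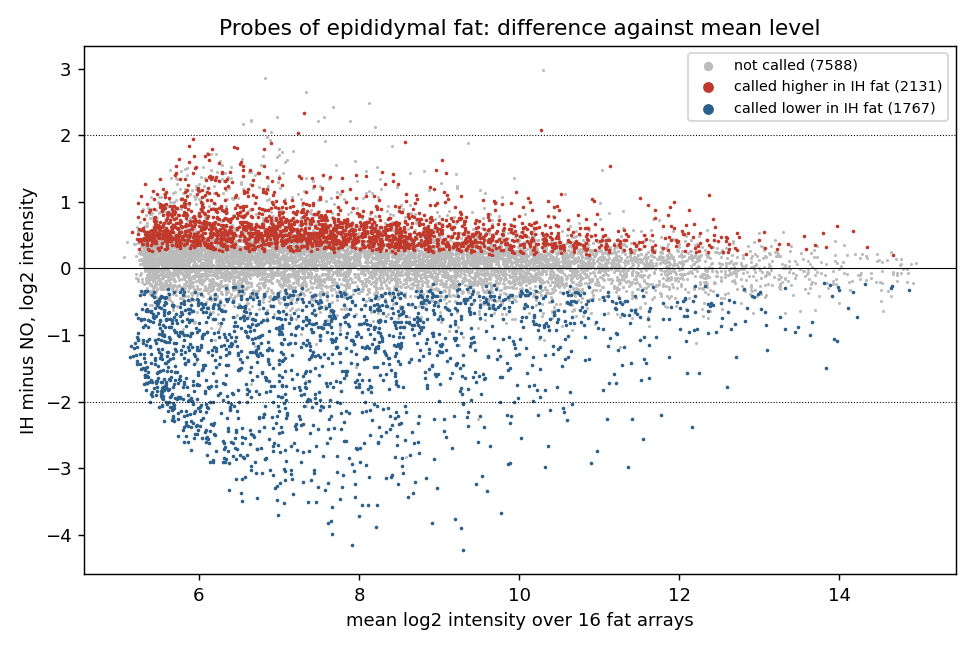
Each point is 1 of 11486 probes, with its mean log2 intensity over the 16 fat arrays on the horizontal axis and the IH minus NO difference on the vertical axis (dotted lines at 2 and -2). Red points are the 2131 probes called higher and blue points the 1767 called lower, of which 359 lie at or below -2.

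The 359 probes that fell by 2 or more in IH fat are described next, with their size as the rule that chose them. They belonged to 332 named genes (22 probes had no symbol) and their differences ran from -4.23 to -2.001. Dag1 (-2.001) and Chp2 (-2.002) lay just inside the limit and Dpyd (-1.999) and Lpcat3 (-1.998) just outside it. All 359 were detected on every NO array. For the 64 of them detected on no IH array the filter fixed this, since it asked for 8 arrays. The fitted differences of those 64 are not measured sizes. On single IH arrays between 181 and 274 of the 359 were detected, so the sizes of other falls are also uncertain where detection failed. The median log2 intensity of all 359 was 5.76 in IH fat and 8.44 in NO fat. Per array, their mean lay between 5.73 and 6.33 on all 8 IH arrays, on both chips, and between 8.55 and 8.80 on all 8 NO arrays. Read on the liver arrays, after normalization of all 31 arrays together, the mean of the same probes lay between 7.94 and 8.12 under IH and between 7.85 and 8.07 under NO. The liver IH arrays included 5 on chip 3, the chip that also held NO fat. No liver array lay on chip 5 or 6, so the liver values say nothing of those chips.

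**Figure D2:**
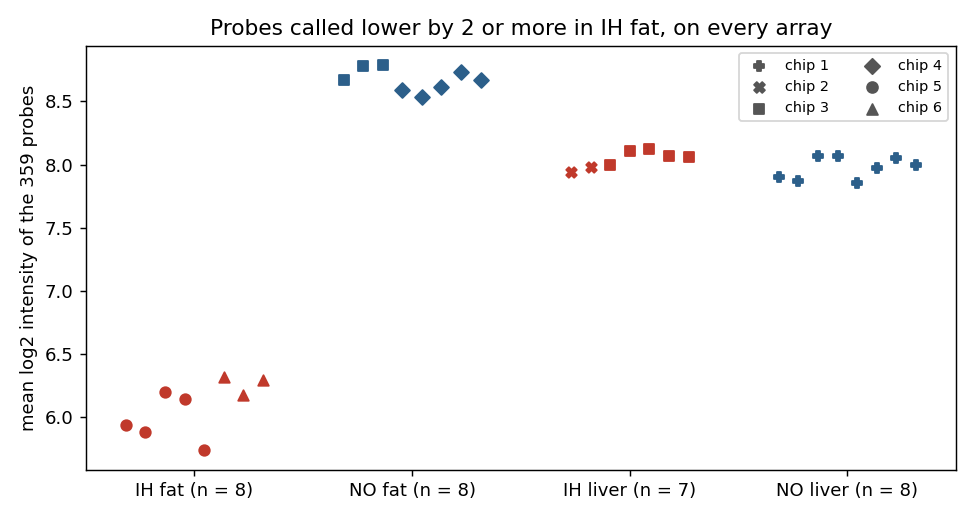
Mean log2 intensity of the 359 probes that fell by 2 or more in IH fat, 1 point per array, with the chip shown by the symbol; all 31 arrays were normalized together for this plot. IH fat lies between 5.74 and 6.32 on chips 5 and 6, NO fat between 8.53 and 8.79 on chips 3 and 4, and both liver groups between 7.85 and 8.12.

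Kpna3, an importin that carries proteins into the nucleus, ranged from 4.84 to 5.49 on IH arrays (median 5.16) and from 8.61 to 9.08 on NO arrays (median 8.83). Its difference of -3.70 (SE 0.10, adjusted p = 1.55e-13, limma) shared the smallest adjusted p of all probes with that of Vapa, a protein of the endoplasmic reticulum membrane that tethers other organelles. Vapa ranged from 5.90 to 6.59 in IH fat (median 6.43) and from 9.80 to 10.04 in NO fat (median 9.87), a difference of -3.55. Neither pair of groups overlapped. The largest fall by a gene's brightest probe was that of Mccc1, a subunit of the carboxylase that breaks down leucine, which ranged from 4.75 to 6.53 in IH fat (median 6.02) and from 9.62 to 10.42 in NO fat (median 9.98). Its difference was -4.15 (SE 0.23, adjusted p = 1.16e-10, limma). Kpna3 and Mccc1 were not detected on every IH array. Over the alternatives their differences ran from -3.811 to -2.002 and from -4.425 to -2.772. The same limit held for the brightest probes of Ankrd17, Cpd, Nampt, Cd36, Pck1, Dld, Ccng2, Rbp4, Clec10a, H2-D1 and Hbb-bt, described below. The sizes of these falls are uncertain.

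The probes of each gene were then set side by side. Of the 8207 genes, 1984 had several kept probes and 1128 of these had at least 1 probe called. In 141 genes every kept probe was higher in IH fat, in 62 every kept probe was lower, in 97 probes were called in opposite directions, and in 828 only some probes were called. Of 634 genes with a probe called higher, 22.2% had every probe higher, and of 591 genes with a probe called lower, 10.5% had every probe lower. Of 124 genes with several probes and at least 1 that fell by 2 or more, 2 (Pon3 and Cpd) had every probe at a fitted difference of -2 or below. For Pon3 that rests on a probe detected on no IH array, whose fitted value is no measure of the size. The other 167 probes of these genes had a median difference of -0.03, with 35 called lower, 13 called higher and 119 not called. Of all probes tested, 15.4% were called lower and 18.6% higher. The 167 are by choice those not among the large falls, which limits how low their median can lie.

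**Figure D3:**
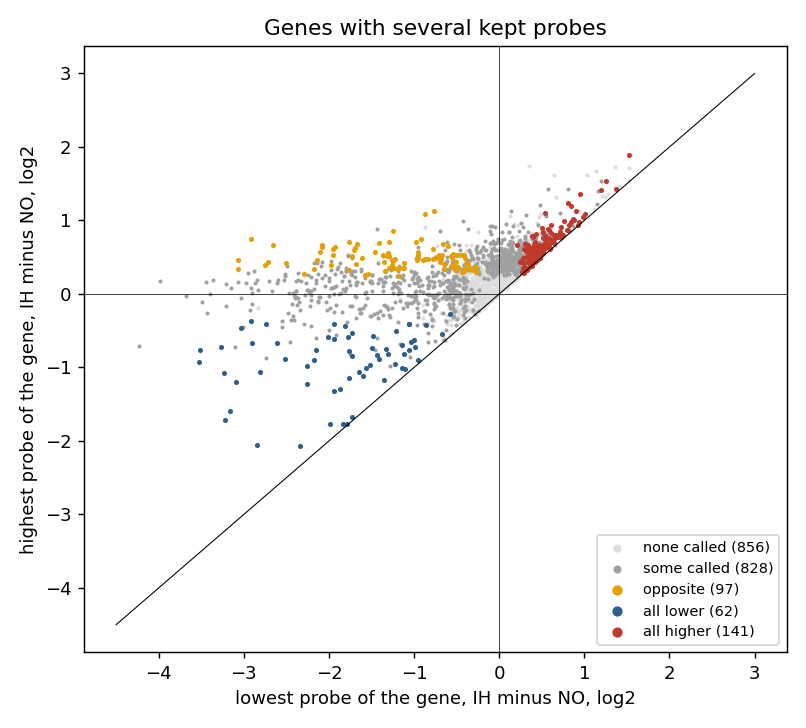
Each point is 1 of 1984 genes with several kept probes, with its lowest probe on the horizontal axis and its highest on the vertical axis (IH minus NO, log2; points on the diagonal have equal probes). The 141 genes with all probes higher lie close to the diagonal, while the 828 genes with some probes called include a band with a low lowest probe and a highest probe close to 0.

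Hprt, an enzyme of purine salvage commonly used as a control gene, had its brightest probe between 12.16 and 12.91 in IH fat (median 12.50) and between 11.23 and 12.33 in NO fat (median 11.89), a rise of 0.67 (adjusted p = 0.00321, limma), while its other probes differed by -2.66 and -2.46. The rise of Hprt was not called with chip 5 left out (0.47, adjusted p = 0.105). Ankrd17, an ankyrin repeat protein, had a probe that differed by -3.07 and another by 0.47, and Becn1, a component of the lipid kinase complex that starts autophagy, had probes at -2.50 and 0.41, the rise not called without chip 3, 4 or 6 (adjusted p = 0.0533, 0.157 and 0.0692). The same held between a called and an uncalled probe of 1 gene: Col3a1, a fibrillar collagen, differed by -3.20 on its brightest probe (adjusted p = 1.40e-09) and by -0.17 on the other (adjusted p = 0.685). The cause of the disagreement between probes was not tested, and probe sequences were not used here.

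Genes with every probe higher in IH fat were led by Faah, Nr1d1, Cmtm8, Dmkn, Smtn, Rasl11b and Ccnd1, whose smallest differences lay between 0.94 and 1.52. Nr1d1, which encodes the clock repressor REV-ERB alpha, is described with the clock. Faah, the hydrolase that breaks down the endocannabinoid anandamide, ranged from 5.73 to 10.30 in IH fat (median 7.94) and from 5.06 to 7.30 in NO fat (median 5.82). Its probes differed by 1.89 (SE 0.55, adjusted p = 0.0146, limma) and 1.52 (adjusted p = 0.0308). The groups overlapped, and without IH 16, IH 19 and NO 4 the difference of the brightest probe was 1.20 with an adjusted p of 0.0637. Without chip 3 it was 1.47 (adjusted p = 0.121). Ccnd1, which encodes cyclin D1 and drives entry into the cell cycle, had 3 probes at 0.94, 0.99 and 1.36. The brightest ranged from 9.60 to 11.81 in IH fat (median 10.95) and from 9.44 to 10.84 in NO fat (median 10.07, adjusted p = 0.0188). Without the 3 arrays with epididymis markers Ccnd1 differed by 0.60 (adjusted p = 0.117), and its call was lost without chip 3, 4 or 5 (adjusted p up to 0.129).

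Cmtm8 and Dmkn stayed called without those arrays, but not with every chip left out. Cmtm8, a membrane protein of the chemokine-like family, had probes at 1.26 and 1.53, and the brightest lay between 6.56 and 9.24 in IH fat (median 7.72) and between 5.84 and 7.83 in NO fat (median 6.10). Its difference without IH 16, IH 19 and NO 4 was 1.08 (adjusted p = 0.0187, limma), and without chip 3 it was 1.04 (adjusted p = 0.0846). Dmkn, which encodes dermokine and stood on the mesothelial marker list, differed by 1.41 and 1.20, and by 1.55 on the brightest probe without those arrays (adjusted p = 0.00349), but without chip 4 the difference of 1.62 was not called (adjusted p = 0.0645). Of the 15 mesothelial genes measured, 3 were higher (Dmkn, Krt19 and Bcam) and 3 lower (Gpm6a, Lrrn4 and Wt1), with a list median of 0.11. Krt19, a keratin of simple epithelia, differed by 1.34 in all arrays (adjusted p = 0.0181), by 1.08 without those 3 (adjusted p = 0.0607) and by 0.99 without chip 3 (adjusted p = 0.147).

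The rises with the smallest adjusted p were of moderate size. Ass1, which encodes argininosuccinate synthase, an enzyme that makes the precursor of arginine, ranged from 6.95 to 8.51 in IH fat (median 7.37) and from 5.77 to 6.57 in NO fat (median 5.97). The groups did not overlap, and the difference was 1.54 (SE 0.21, adjusted p = 1.65e-05, limma). Vezf1, a zinc finger factor of the endothelium, ranged from 9.04 to 9.88 in IH fat (median 9.71) and from 7.93 to 8.85 in NO fat (median 8.45), a difference of 1.15 (adjusted p = 6.41e-06). Ankfy1, an effector of the endosomal GTPase RAB5, had the smallest adjusted p of any rise (1.74e-06) at a difference of 0.69. All 3 genes were read from 1 probe each, and each stayed called without IH 16, IH 19 and NO 4, with each IH chip alone against NO, and with chip as a random block.

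The largest rises were less even between mice. Osr2, a transcription factor of mesenchymal tissue, ranged from 5.59 to 10.49 in IH fat (median 8.82) and from 4.78 to 7.62 in NO fat (median 6.32), a difference of 2.34 (SE 0.69, adjusted p = 0.0144, limma). Mfap4, a protein of elastic microfibrils, ranged from 5.46 to 9.68 in IH fat (median 8.20) and from 4.42 to 7.45 in NO fat (median 5.78), a difference of 2.08 (adjusted p = 0.0148). Both ranges overlapped widely. Clu, which encodes clusterin and is the 1 called member of the epididymis marker list, ranged from 10.73 to 14.57 in IH fat (median 11.64) and from 10.12 to 10.86 in NO fat (median 10.32). With the mean of the 6 measured epididymis markers as a covariate, Osr2 differed by 1.29 (adjusted p = 0.0417), Mfap4 by 1.18 (adjusted p = 0.0505) and Clu by 0.93 (adjusted p = 0.0416). Without chip 3 none of the 3 was called, with Osr2 at 1.68 (adjusted p = 0.135), Mfap4 at 1.34 (adjusted p = 0.152) and Clu at 1.46 (adjusted p = 0.0683), and their calls were also lost without chip 6 (Osr2 and Mfap4) or chip 4 (Clu), with adjusted p from 0.0715 to 0.112. Lcn2, an iron-binding secreted protein also counted among adipokines, differed by 2.98 and was not called (adjusted p = 0.0616). It ranged from 7.31 to 14.88 in IH fat (median 12.48) and from 6.21 to 11.42 in NO fat (median 9.04). Lcn2 was called when NO 5, IH 15, IH 17 or IH 18 was left out (adjusted p = 0.0185 at the lowest). Without the 3 arrays with epididymis markers, however, Lcn2 differed by 2.06 (adjusted p = 0.218). With the epididymis covariate it differed by 1.39 (adjusted p = 0.281).

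Genes with every probe lower in IH fat were fewer (62, against 141 with every probe higher). That imbalance depended on the setting. Without chip 4 there were 53 with every probe lower and 49 with every probe higher. With the 359 large falls removed before normalization there were 58 and 69. Pon3, a paraoxonase that hydrolyses lactones and is carried on high-density lipoprotein, had 3 probes called lower, the brighter 2 at -2.84 and -2.35. Its brightest probe ranged from 5.67 to 7.73 in IH fat (median 7.14) and from 9.32 to 10.61 in NO fat (median 9.94), with no overlap (SE 0.25, adjusted p = 7.17e-08, limma). Its dimmest probe was detected on no IH array and was at least 2.41-fold lower there, the bound set by the lowest detected signal. Cpd, a carboxypeptidase of the secretory pathway, had probes at -2.34 and -2.07. Its brightest probe ranged from 5.06 to 7.69 in IH fat (median 5.98) and from 7.41 to 9.29 in NO fat (median 8.71), with a small overlap.

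Nampt, the enzyme that recycles nicotinamide into NAD and is also secreted as visfatin, differed by -3.22 on the brighter of its probes. Its brightest probe ranged from 5.44 to 6.96 in IH fat (median 6.05) and from 8.77 to 9.86 in NO fat (median 9.09). The weaker probe was detected on no IH array and was at least 1.89-fold lower there. Mlx, the partner of the glucose-sensing factor ChREBP, differed by -1.73 on its brightest probe and was at least 2.37-fold lower on the other, detected on no IH array, and Srgn, a proteoglycan of secretory granules in blood cells, differed by -1.60 and -3.16. Other genes with agreeing falls were Ythdf3, Dek, Psmd6 and St8sia4, whose smallest differences lay between -1.77 and -1.29. Pon3, Cpd, Nampt, Mlx and Srgn each stayed called with every array and every chip left out in turn.

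**Figure D4:**
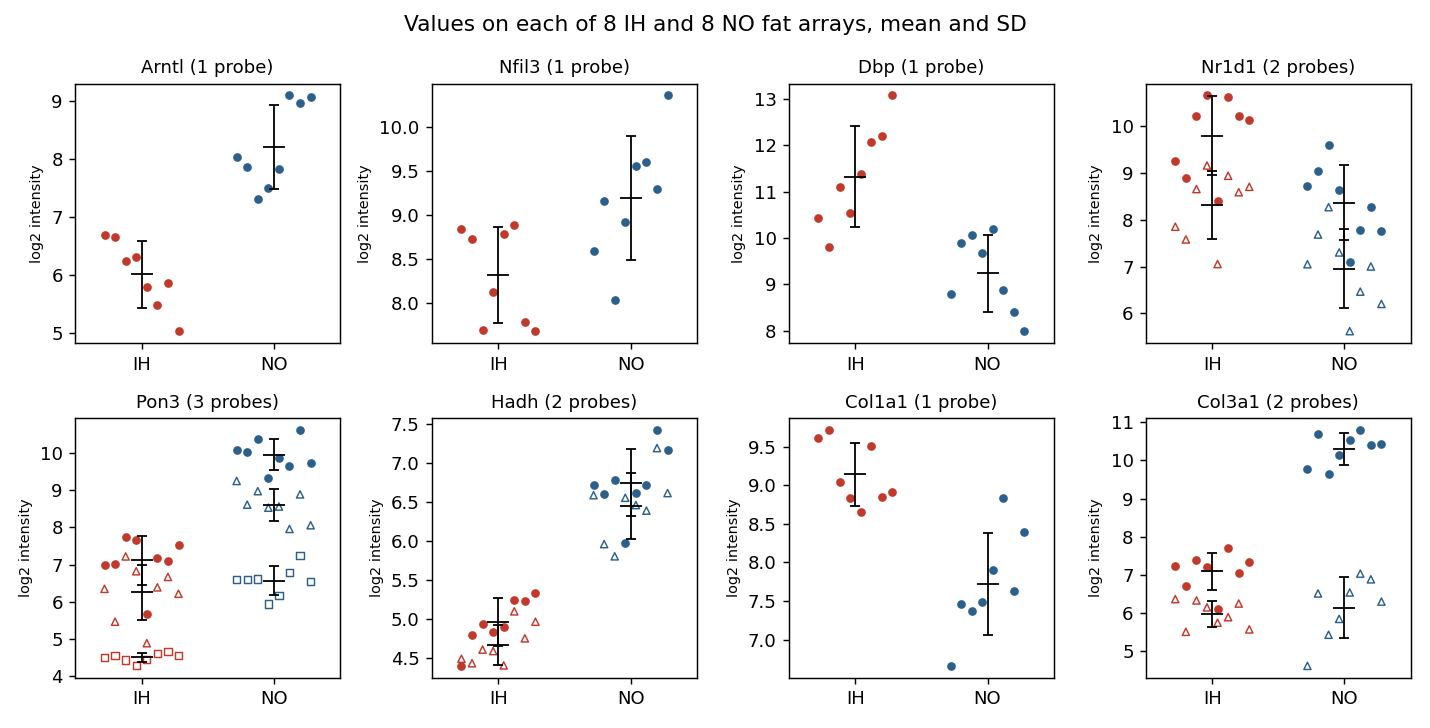
Log2 intensity of 8 genes on each of 8 IH (red, left) and 8 NO (blue, right) fat arrays, with mean and SD for each probe; filled circles are the brightest probe and open symbols the others. All 3 probes of Pon3 and both of Hadh were lower in IH, both probes of Nr1d1 were higher, and Col3a1 fell on its brightest probe only.

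The gene groups were read by brightest probe, beside 18.0% of all genes higher, 14.6% lower and a median difference of 0.11. Groups of fat storage and release lay below that median. The lipolysis list had 0 of 14 genes higher and 2 lower (Fabp4 and Prkar2b), with a median of -0.34. Triglyceride synthesis and lipid droplet genes had 0 of 21 higher and 4 lower, with a median of -0.41 and 2 members above 0. Fatty acid uptake had 0 of 12 higher and 5 lower (median -0.22), and de novo lipogenesis had 1 of 16 higher and 3 lower (median -0.38). No member of the first 3 of these lists was higher at an unadjusted p under 0.05 either (limma). The adipocyte marker mean was lowest on IH 19 (9.79), the array with the most epididymis marker probes. Without IH 16, IH 19 and NO 4 the medians were 0.01 for lipolysis, -0.33 for triglyceride synthesis, -0.01 for uptake and -0.52 for lipogenesis, against 0.14 over all genes. Fewer adipocytes, less RNA per adipocyte, admixed RNA of the epididymis and chip cannot be told apart in these bulk samples.

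Among the large falls in these groups, Fabp4, Cd36 and Pck1 were read from 1 probe each. Fabp4, the fatty acid carrier of adipocytes, ranged from 5.48 (on IH 19) to 8.96 in IH fat (median 8.10) and from 10.55 to 11.85 in NO fat (median 11.25). Its difference was -3.34 (SE 0.37, adjusted p = 1.27e-06, limma), and -2.999 without the 3 arrays. Cd36, a receptor for fatty acid uptake, ranged from 4.55 to 6.62 in IH fat (median 6.05) and from 8.74 to 9.47 in NO fat (median 9.38), a difference of -3.32. Pck1, which makes the glycerol backbone of triglyceride in fat, ranged from 4.57 to 7.21 in IH fat (median 6.35) and from 7.70 to 10.27 in NO fat (median 9.56), a difference of -3.28. None of these 3 pairs of groups overlapped. Cd36 and Pck1 were not detected on every IH array, so the sizes of their falls are uncertain. Other genes of adipocytes had smaller differences. Adipoq, which encodes adiponectin, differed by -0.33 (adjusted p = 0.190), Plin1, the coat protein of the lipid droplet, by -0.36 (adjusted p = 0.434), Lpl, the lipoprotein lipase, by -0.33 (adjusted p = 0.0189, not called with any chip left out, adjusted p = 0.0538 to 0.108) and Lep, which encodes leptin, by 0.06 (adjusted p = 0.895).

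Leptin and the master regulator of adipocytes were not called on their brightest probe. Lep ranged from 12.90 to 13.97 in IH fat (median 13.66) and from 12.41 to 14.54 in NO fat (median 13.57). Against the NO arrays of chip 3 alone, however, Lep differed by 0.99 (adjusted p = 0.0116, limma), and against those of chip 4 alone by -0.49. Pparg, the nuclear receptor that drives adipocyte differentiation, differed by -0.09 on its brightest probe (adjusted p = 0.839), which ranged from 10.25 to 12.92 in IH fat (median 12.56) and from 11.61 to 12.77 in NO fat (median 12.43). Its other probes differed by -2.13 (adjusted p = 9.03e-05) and -1.17 (adjusted p = 0.00640). Lipe, the hormone-sensitive lipase, differed by -0.53 (adjusted p = 0.235) and -0.84 (adjusted p = 0.0356). Plin1 and Pparg lay slightly above 0 without IH 16, IH 19 and NO 4 (0.03 and 0.27).

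Fatty acid synthesis genes were uneven. Me1, the malic enzyme that supplies NADPH, ranged from 8.62 to 10.43 in IH fat (median 9.60) and from 11.61 to 13.29 in NO fat (median 12.17), a difference of -2.74 (adjusted p = 3.93e-07, limma), while its dimmer probe differed by -0.87 (adjusted p = 0.514). Fasn, the fatty acid synthase, ranged from 5.18 to 7.85 in IH fat (median 6.10) and from 5.88 to 9.75 in NO fat (median 8.87), a difference of -1.90 (adjusted p = 0.0172). The Fasn ranges overlapped, and its adjusted p was 0.0570 without the 3 arrays, 0.199 without chip 5 and 0.476 against the NO arrays of chip 3 alone. Fads2, a desaturase, was the 1 member higher, with 5.38 to 9.09 in IH fat (median 6.33) and 4.69 to 5.98 in NO fat (median 5.17), a difference of 1.69 (adjusted p = 0.0163). The Fads2 call was lost without chip 3 (1.49), without chip 4 (2.02, adjusted p = 0.0951) and with the epididymis covariate (0.95, adjusted p = 0.0586). Slc2a4, the insulin-responsive glucose transporter GLUT4, differed by -0.80 (adjusted p = 0.0375). That call was lost when any of 10 single arrays was left out (NO 1, 3, 5, 6, 7 and 8, and IH 15, 16, 17 and 19, adjusted p up to 0.0749), and on chip 6 alone Slc2a4 differed by 0.03.

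Falls were spread over the mitochondrial groups. None of the 18 genes of mitochondrial fatty acid oxidation lay above 0, with 0 higher and 6 lower (median -0.37; -0.22 without the 3 arrays with epididymis markers, where 4 lay above 0). Hadh, the dehydrogenase of short-chain hydroxyacyl-CoA, was called lower on both probes, with fitted differences of -1.78 and -1.77 for values at or near background in IH fat. The brightest ranged from 4.41 to 5.34 in IH fat (median 4.92) and from 5.97 to 7.42 in NO fat (median 6.72), and was detected on 1 IH array (adjusted p = 3.31e-07, limma). The other was detected on no IH array and was at least 2.22-fold lower there. Hadhb, a subunit of the trifunctional protein for long chains, ranged from 9.56 to 10.72 in IH fat (median 10.39) and from 12.22 to 12.86 in NO fat (median 12.57), a difference of -2.26. Cpt1b, which admits long-chain fatty acids, differed by -0.76 on its brightest probe and by -0.12 on the other.

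The citric acid cycle had 1 of 22 genes higher and 9 lower (median -0.36), and 3 of its 5 genes with several probes had all of them lower. Mdh1, the cytosolic malate dehydrogenase, had 3 probes called lower, at -1.44 and -1.22 on 2 of them and at least 2.97-fold lower on the probe detected on no IH array. Its brightest ranged from 7.11 to 8.14 in IH fat (median 7.76) and from 8.69 to 9.42 in NO fat (median 9.14), with no overlap (adjusted p = 1.97e-06, limma). Pdhb, a subunit of pyruvate dehydrogenase, had probes at -0.92 and -3.53. Sdhb, the iron-sulphur subunit of succinate dehydrogenase, had 3 called lower, at -0.66 and -0.79 on 2 of them and at least 1.37-fold lower on the probe detected on no IH array. The brightest probes of Pdhb and Sdhb were not called with chip 5 left out (-0.38 and -0.22, adjusted p = 0.416 and 0.432) or with chip 4 left out (-0.43 and -0.57, adjusted p = 0.349 and 0.193), and Sdhb was not called with chip 3 left out (adjusted p = 0.0577). Cs, the citrate synthase, differed by -0.63 on 1 probe (adjusted p = 0.00933), and by -0.22 on the arrays of chip 6 against NO (adjusted p = 0.367).

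The respiratory chain and ATP synthase list held a few large falls among many genes that were not called. Of its 70 genes 18 were lower, 10 of them by 2 or more, and 2 were higher, while the median was -0.10 and 50 genes were not called. Atp5a1, the alpha subunit of ATP synthase, ranged from 6.74 to 8.08 in IH fat (median 7.32) and from 10.97 to 11.42 in NO fat (median 11.23), a difference of -3.90 (SE 0.17, adjusted p = 1.33e-11, limma). Ndufb9, a subunit of complex I, differed by -3.82 and Sdhd, the membrane anchor of complex II, by -3.79. All 3 were read from 1 probe each. Cycs, which encodes cytochrome c, showed that the size of such a fall depended on the probe, at -3.03 on the brightest and -0.46 on the other, both called. The mitochondrial ribosome list had 3 of 67 genes higher and 11 lower (median -0.04). Branched chain amino acid breakdown had 0 of 15 higher and 5 lower, Mccc1, Dld, Aldh6a1, Acadsb and Bckdhb, at -4.15 to -1.89, each read from 1 probe. Dld, the dihydrolipoamide dehydrogenase shared by several such complexes, differed by -3.51.

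**Figure D5:**
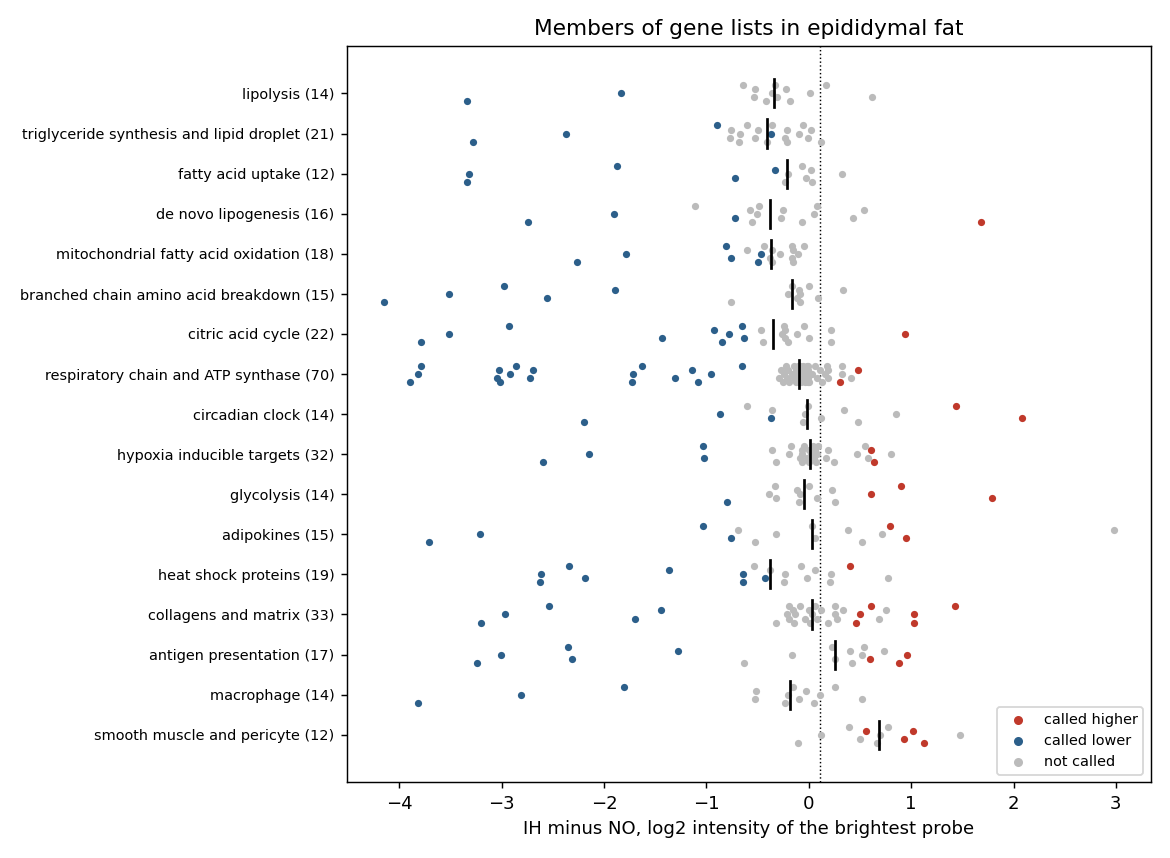
Log2 difference (IH minus NO) of the brightest probe of every measured member of 17 gene lists, with the number of members in brackets. Red points were called higher, blue lower and grey not called, bars are list medians, and the dotted line is the median of all 8207 genes (0.11).

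Of 14 measured clock genes 2 were higher and 3 lower (median -0.02), beside 18.0% higher and 14.6% lower over all genes. Dbp, an output factor of the clock, ranged from 9.80 to 13.07 in IH fat (median 11.23) and from 8.00 to 10.20 in NO fat (median 9.28), a difference of 2.09 (SE 0.44, adjusted p = 0.00149, limma). Nr1d1 ranged from 8.41 to 10.66 in IH fat (median 10.17) and from 7.11 to 9.61 in NO fat (median 8.45), and its probes agreed at 1.43 (adjusted p = 0.00747) and 1.37 (adjusted p = 0.00813). Arntl ranged from 5.03 to 6.69 in IH fat (median 6.05) and from 7.31 to 9.09 in NO fat (median 7.94), with no overlap, a difference of -2.20 (adjusted p = 1.95e-05). Nfil3, a repressor that competes with DBP for the same sites, ranged from 7.69 to 8.89 in IH fat (median 8.43) and from 8.03 to 10.36 in NO fat (median 9.23), a difference of -0.87 (adjusted p = 0.0293). The groups of Dbp, Nr1d1 and Nfil3 overlapped.

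Some of these calls were lost with a chip left out, which also leaves fewer arrays. Whether chip or array number mattered was not tested. Against the NO arrays of chip 3 alone Dbp differed by 1.74 (adjusted p = 0.0659, limma), Nr1d1 by 0.67 (adjusted p = 0.328) and Nfil3 by -0.27 (adjusted p = 0.599). The call of Nfil3 was also lost when NO 5, NO 6, NO 8, IH 17, IH 21 or IH 22 was left out (adjusted p up to 0.0571), and without chip 5 (adjusted p = 0.0744) or chip 6 (adjusted p = 0.107). Nr1d1 was not called without chip 6 (1.12, adjusted p = 0.0714). Arntl stayed called in every setting that gave a value, with differences from -2.75 to -1.25. It was read from 1 probe, which was not detected on every IH array and belongs to the 359 large falls. Dbp and Nfil3 were also read from 1 probe each. Without IH 16, IH 19 and NO 4, Dbp differed by 2.40, Nr1d1 by 1.85 and Arntl by -2.37. Clock itself differed by -0.37 on its brightest probe (adjusted p = 0.0327) and by -0.07 on the other. None of the other clock genes was called by its brightest probe, among them Per1 (0.48, adjusted p = 0.418), Per2 (0.85, adjusted p = 0.0811) and Nr1d2 (-0.61, adjusted p = 0.0872). Csnk1d, a kinase that marks PER proteins for decay, had 5 probes, of which the brightest was not called (-0.01) and 2 were called in opposite directions (0.65 and -0.60).

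The promoters of the 4 clock genes with the largest called differences are shown, since REV-ERB and its activating counterpart ROR read the core letters AGGTCA. Each window runs from 250 bases before to 50 after a RefSeq start (GRCm38.p6), with AGGTNA on either strand in capitals (TNACCT where it lies on the opposite strand). Of 2 windows listed for Arntl 1 holds AGGTCA and both hold AGGTNA, and the downstream one is printed, at chr7:113207261-113207560 (plus strand).
Arntl: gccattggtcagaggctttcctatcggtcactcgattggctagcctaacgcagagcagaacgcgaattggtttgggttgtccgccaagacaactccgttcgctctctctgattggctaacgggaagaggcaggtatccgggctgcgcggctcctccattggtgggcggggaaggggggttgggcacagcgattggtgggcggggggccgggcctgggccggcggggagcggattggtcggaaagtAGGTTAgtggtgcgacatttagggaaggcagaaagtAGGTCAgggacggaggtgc
The window of Nfil3 lies at chr13:52980990-52981289 (minus strand).
Nfil3: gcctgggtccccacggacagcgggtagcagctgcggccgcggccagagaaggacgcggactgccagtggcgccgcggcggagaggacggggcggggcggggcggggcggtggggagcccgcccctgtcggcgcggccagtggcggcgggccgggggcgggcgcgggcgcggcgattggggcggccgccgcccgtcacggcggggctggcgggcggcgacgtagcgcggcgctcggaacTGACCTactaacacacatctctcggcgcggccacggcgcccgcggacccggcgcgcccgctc
The window of Nr1d1 lies at chr11:98775328-98775627 (minus strand).
Nr1d1: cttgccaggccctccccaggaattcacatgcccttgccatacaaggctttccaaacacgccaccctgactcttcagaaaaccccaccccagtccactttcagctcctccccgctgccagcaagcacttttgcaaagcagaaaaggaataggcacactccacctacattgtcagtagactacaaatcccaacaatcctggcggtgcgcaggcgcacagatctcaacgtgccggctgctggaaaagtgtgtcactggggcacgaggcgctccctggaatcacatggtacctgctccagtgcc
The window of Dbp lies at chr7:45704997-45705296 (plus strand).
Dbp: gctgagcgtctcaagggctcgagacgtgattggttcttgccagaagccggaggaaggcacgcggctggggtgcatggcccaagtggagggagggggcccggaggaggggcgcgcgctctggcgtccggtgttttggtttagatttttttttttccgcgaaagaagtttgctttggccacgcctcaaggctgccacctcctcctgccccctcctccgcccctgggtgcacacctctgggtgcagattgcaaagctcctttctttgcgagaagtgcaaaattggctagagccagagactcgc

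The window of Nfil3 and 1 of the 2 of Arntl held AGGTCA on 1 strand, and the printed Arntl window held AGGTTA as well. Those of Nr1d1 and Dbp held neither. Of 32851 windows of the same length in the table (27025 genes), 16.3% held AGGTCA and 42.3% held AGGTNA on either strand. The palindrome CACGTG, the E-box read by CLOCK and BMAL1, stood in 7.15% of all windows and in none of these 4. A match describes the letters only, and no match in these windows says nothing of sites elsewhere in the genes.

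Of the hypoxia-inducible targets, 2 of 32 measured genes were higher and 4 lower, with a median of 0.01. Slc2a1, the glucose transporter GLUT1, ranged from 8.63 to 10.01 in IH fat (median 8.99) and from 8.03 to 8.71 in NO fat (median 8.57), a difference of 0.61 (SE 0.17, adjusted p = 0.0110, limma). The Slc2a1 call was lost without chip 3, 4 or 5 (adjusted p = 0.0655, 0.0799 and 0.103) and with the epididymis covariate (0.42, adjusted p = 0.0501). Kdm3a, a histone demethylase, was the other gene higher, at 0.63 on its brightest probe and 0.16 and 0.14 on the others. Vegfa, the main growth factor of vessels, ranged from 10.16 to 11.72 in IH fat (median 11.05) and from 11.62 to 12.67 in NO fat (median 12.00), a difference of -1.03 (adjusted p = 0.00142), while its second probe differed by 0.31 (adjusted p = 0.354). Egln3, an oxygen-sensing prolyl hydroxylase, differed by -1.02. Mxi1, an antagonist of MYC, was detected on no IH array and was at least 3.07-fold lower there, and Ccng2, a cyclin linked to cell cycle arrest, differed by -2.60. In glycolysis 3 of 14 genes were higher (Slc2a1, Eno3 and Aldoc) and 1 lower (Slc2a4), with a median of -0.04. Pdk2, a kinase that holds back pyruvate dehydrogenase and the 1 higher member of the citric acid cycle list, differed by 0.94 (adjusted p = 0.00517), and was not called without chip 4 (adjusted p = 0.0638) or chip 5 (adjusted p = 0.119).

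Of 15 secreted factors of fat (adipokines) 2 were higher and 4 lower (median 0.03), beside 18.0% and 14.6% of all genes. Rbp4, the carrier of retinol in plasma, ranged from 4.81 to 7.29 in IH fat (median 6.15) and from 8.86 to 10.75 in NO fat (median 9.89), a difference of -3.71 (adjusted p = 6.88e-08, limma). Dpp4, a peptidase that marks progenitor cells and is shed by fat, ranged from 8.54 to 10.74 in IH fat (median 9.20) and from 7.86 to 8.91 in NO fat (median 8.62), a difference of 0.95 (adjusted p = 0.00986), and of 0.63 without chip 3 (adjusted p = 0.114). Bmp4, a signal that commits precursor cells to the adipocyte line, differed by 0.79 (adjusted p = 0.00553), and by 0.59 without chip 6 (adjusted p = 0.0605). Among chemokines and cytokines 4 of 25 genes were higher and 1 lower. Cxcl14, a chemokine expressed by fibroblasts and fat, ranged from 6.08 to 7.43 in IH fat (median 7.29) and from 4.73 to 6.59 in NO fat (median 5.42), a difference of 1.44 (adjusted p = 0.000546), and its dimmer probe differed by 0.57 (adjusted p = 0.110). Tgfb1, a cytokine that drives matrix production, ranged from 7.11 to 7.92 in IH fat (median 7.26) and from 5.67 to 7.18 in NO fat (median 6.44), a difference of 0.92 (adjusted p = 0.00133).

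Macrophage markers included large falls. Of 14 measured, 3 were lower (Adgre1, Clec10a and Cd163) and 0 higher, with a median of -0.18. Adgre1, which encodes the surface antigen F4/80, was lower on both probes, at -2.81 and -1.06. The brightest ranged from 5.37 to 7.18 in IH fat (median 6.31) and from 8.57 to 9.87 in NO fat (median 9.13), with no overlap (adjusted p = 1.49e-07, limma). Clec10a, a lectin of alternatively activated macrophages, ranged from 4.58 to 6.27 in IH fat (median 6.03) and from 9.10 to 10.24 in NO fat (median 9.44), a difference of -3.82 on 1 probe. The mean of the marker list ranged from 8.64 to 10.60 in IH fat (median 9.32) and from 9.43 to 11.00 in NO fat (median 10.12), so that the groups overlapped. Without IH 16, IH 19 and NO 4 the list's median was 0.05.

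Of 17 measured antigen presentation genes 3 were higher and 5 lower, beside 18.0% higher and 14.6% lower over all genes. The class I heavy chains H2-K1 and H2-D1, which present peptides from inside the cell, differed by -3.01 and -3.24 on their brightest probes. H2-K1 ranged from 4.80 to 6.23 in IH fat (median 5.38) and from 8.15 to 8.97 in NO fat (median 8.58, adjusted p = 2.76e-09, limma), while its second probe differed by -0.45 (adjusted p = 0.180). The brightest probe of H2-K1 was not detected on every IH array, and its difference ran from -3.38 to -1.66 over the alternatives. Class I chains are near-identical in sequence and vary between strains, so a probe may read several of them. Among class II genes Cd74, the invariant chain, was higher on both probes (0.88 and 1.00), with the brightest between 11.93 and 13.70 in IH fat (median 12.45) and between 10.52 and 12.49 in NO fat (median 11.90, adjusted p = 0.0410). The call of Cd74 was lost when any of 9 arrays was left out (NO 1 to 4, and IH 16, 18, 20, 21 and 22, adjusted p up to 0.0817), without chip 3 (adjusted p = 0.235), chip 6 (adjusted p = 0.226) or IH 16, IH 19 and NO 4 (adjusted p = 0.0762), and with chip as a random block (adjusted p = 0.0516). H2-Ab1, a class II beta chain, was higher by 0.96 on its brightest probe (adjusted p = 0.0157) and by 0.26 to 0.47 on 3 others that were not called. Without chip 3 the H2-Ab1 difference was 0.74 (adjusted p = 0.0951) and without chip 6 it was 0.61 (adjusted p = 0.139). H2-Aa, its alpha chain partner, differed by -2.31 (adjusted p = 0.0156).

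The collagen and matrix list had 6 of 33 genes higher and 5 lower, close to the 18.0% and 14.6% of all genes. Its median was 0.04. Chains of 1 protein could differ in direction. Col1a1, the alpha 1 chain of type I collagen, ranged from 8.66 to 9.72 in IH fat (median 8.98) and from 6.66 to 8.83 in NO fat (median 7.56), a difference of 1.42 (SE 0.26, adjusted p = 0.000375, limma). Col1a2, the chain with which it assembles, differed by -1.45 (adjusted p = 1.50e-06). Col6a2, a chain of the type VI collagen that surrounds adipocytes, ranged from 8.21 to 9.31 in IH fat (median 8.76) and from 7.00 to 8.28 in NO fat (median 7.81), a difference of 1.03 (adjusted p = 0.000837). Hbb-bt, a beta globin, differed by -2.96 (adjusted p = 0.00241), while Hba-a1, the alpha globin of the same tetramer, differed by -0.04 (adjusted p = 0.929) and ranged from 12.77 to 14.95 in IH fat (median 14.79) and from 14.02 to 15.00 in NO fat (median 14.54).

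Smooth muscle and pericyte markers lay mostly above the median of all genes, with 4 of 12 genes higher, 0 lower and a median of 0.68 (1.03 without IH 16, IH 19 and NO 4, where 8 were higher). Smtn, which encodes smoothelin of the contractile apparatus, agreed between probes at 1.01 and 1.09. Its brightest ranged from 9.10 to 11.89 in IH fat (median 10.14) and from 8.53 to 9.76 in NO fat (median 9.22, adjusted p = 0.0153, limma). The Smtn call was lost without chip 3 (adjusted p = 0.0707) or chip 4 (adjusted p = 0.121). Myh11, the myosin heavy chain of smooth muscle, ranged from 10.11 to 13.36 in IH fat (median 10.82) and from 8.94 to 11.16 in NO fat (median 9.94), a difference of 1.12 (adjusted p = 0.0303). The Myh11 call was lost when NO 3, NO 5 or NO 6 was left out (adjusted p up to 0.0603), with each chip left out (adjusted p = 0.0505 to 0.174), and with chip as a random block (adjusted p = 0.0523). IH 15 was highest for both genes and for the list's mean (10.88, against 8.94 to 9.99 on the other IH arrays and 8.22 to 9.55 on the NO arrays). The groups overlapped for each of these.

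Among stress responses the heat shock list had 1 of 19 genes higher and 8 lower (median -0.38; -0.19 without the 3 arrays with epididymis markers). Hsp90aa1, an inducible chaperone, was detected on no IH array and was at least 3.28-fold lower there. Hspd1, the mitochondrial chaperonin, was lower on its brightest probe (-1.36) and not called on the other (0.03, adjusted p = 0.930, limma). Hspa5, the main chaperone of the endoplasmic reticulum, ranged from 4.57 to 5.54 in IH fat (median 4.95) and from 7.20 to 8.04 in NO fat (median 7.79), a difference of -2.74 (adjusted p = 1.27e-10). Hspa5 was not detected on every IH array, and its difference ran from -2.87 to -1.23 over the alternatives. The list of endoplasmic reticulum chaperones as a whole had 3 of 18 genes higher and 6 lower. Of 17 glucocorticoid targets 0 were called in either direction by limma (median 0.12; 1 was higher at an unadjusted p under 0.05), and autophagy genes had 6 of 25 higher and 3 lower (median 0.19).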

How the data were processed

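The authors deposited linear intensity values with a detection p-value for each of 25697 probes, read from mouse bead arrays with GenomeStudio per the labels, and a second table of processed values of the same arrays, also of linear intensity. Over all 31 arrays the deposited intensity ranged from 101.3 to 34880. The sorted values differed by at most 1.05% between arrays, liver included, so the deposited table was not raw. Normalizing the fat arrays alone does not undo this shared distribution. The scale and further processing of the second table are not given in the sources used here. The 16 fat arrays were background-corrected and quantile normalized with neqc of limma 3.58.1 in R 4.3.3 (offset 16). IH and NO were compared with limma's linear model and moderated test (two-sided), with Benjamini-Hochberg adjustment over 11486 probes. A symbol was given for 23978 probes and for 1719 none, and 23962 matched a RefSeq gene. The fold of a probe detected on no IH array is a lower bound: the mean of NO against the mean, in IH, of the higher per array of the lowest detected signal and the probe's own. Chips were read from the labels and numbered here. The number of arrays limits the precision.

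Alternatives changed the scaling, the detection filter, the moderation, array weights, chip as a random block and a covariate for detected probes, used the SAM statistic, and left out each array and each chip in turn. Leaving out IH 16, IH 19 and NO 4, the epididymis marker mean as a covariate, and leaving out the probes with the largest falls were chosen after seeing the data. The model was tested on simulated data. The members and gene lists were chosen with earlier results of these data known. Genes were named by the largest changes, the smallest adjusted p, the most agreeing or opposed probes, the smallest p in each list, and for marker lists brightness or a call. Genes outside that rule, among them Hprt's other probes and uncalled adipocyte and clock genes, were added after their values were seen.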

Additional observations from a re-analysis of the deposited data

Results flagged for a closer look

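Within a group of 8 arrays, 1 array stood far from the other 7 in 15 of 148 groups of values of the genes named above. Chance alone gives such a gap in about 1 in 20 groups. Of the 15, 7 were on IH 19, 3 on NO 1, 2 on IH 15 and 1 each on IH 18, NO 3 and NO 5.

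IH 19 was lowest for adipocyte genes. Adipoq was 13.05 on IH 19, against 14.35 to 14.72 on the other IH arrays, and Plin1 was 7.15, against 9.31 to 10.26. Pparg was 10.25, against 12.19 to 12.92, and Lipe 7.89, against 10.01 to 10.95. Fabp4 was 5.48, against 7.92 to 8.96, and Pon3 5.67, against 6.99 to 7.73. The alpha globin Hba-a1 was 12.77, against 14.41 to 14.95. The same array had 34 epididymis marker probes detected, and the part of these markers in the values was not tested.

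IH 15 was highest for the smooth muscle genes Smtn (11.89, against 9.10 to 10.42 on the other IH arrays) and Myh11 (13.36, against 10.11 to 11.22). Vezf1 was lowest on IH 18 (9.04, against 9.56 to 9.88). Among NO arrays, NO 1 had the lowest Slc2a1 (8.03, against 8.46 to 8.71), the highest Plin1 (10.53, against 9.43 to 9.92) and the lowest Pparg (11.61, against 12.30 to 12.77). Ass1 was highest on NO 3 (6.57, against 5.77 to 6.13) and Pck1 lowest on NO 5 (7.70, against 9.09 to 10.27).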

How the results depend on the processing

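No paired analysis was possible because the IH and NO fat arrays share no replicate numbers. Of 67 called genes named above, 39 kept their call and direction in every alternative that gave a value. With chip as a random block 3402 probes and 2329 genes were called. Leaving out single arrays gave 3551 to 4185 probes (1846 to 2351 higher, 1703 to 1872 lower), 2441 to 2883 genes (1281 to 1634 higher, 1157 to 1266 lower), and 177 to 229 genes with agreeing probes (115 to 160 all higher, 57 to 71 all lower) beside 82 to 112 opposed. Requiring detection on all 16 arrays, which tests fewer probes, gave 1143 probes lower and 135 agreeing genes, 34 of them all lower, with 51 opposed. Without chip 3, 1406 probes and 954 genes were higher, 79 genes had all probes higher and 58 had opposed probes. Without chip 4 the counts were 2451 probes (966 higher), 1649 genes (672 higher) and 102 agreeing (49 all higher, 53 all lower), with 38 opposed. Without chip 5, 55 genes were opposed, and without chip 6, 89 had all probes higher and 61 were opposed. With the probes that fell by 2 or more removed before normalization, 1276 probes were higher and 1559 lower, and 893 genes were higher. There 127 genes agreed (69 all higher, 58 all lower) and 51 were opposed. The share of calls that were higher was 54.7%, and 39.4% without chip 4, 46.1% without chip 3, 45.3% without chip 6 and 45% without the large falls. The median of all genes lay between 0.03 and 0.15 over the settings. Leaving out a chip also lowers the number of arrays, and the cause of these shifts was not tested.

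The genes that changed sign were Slc2a4, which was called, and Lep, Plin1, Hba-a1 and Pparg, which were not. Slc2a4 was 0.032 without chip 5. Lep was -0.14 with detected probes as a covariate, -0.084 to 0.22 with single arrays left out (below 0 without NO 1, NO 2, NO 3 or IH 17), -0.49 without chip 3 and -0.090 without chip 6. Plin1 was 0.093 without chip 5, 0.027 without IH 16, IH 19 and NO 4, and 0.10 with the epididymis covariate. Hba-a1 was 0.17 with array weights, 0.14 with the detected-probe covariate, -0.11 to 0.21 with single arrays left out (above 0 without NO 3, NO 7 or IH 19), 0.090 and 0.14 without chips 3 and 5, 0.23 without those 3 arrays and 0.32 with the epididymis covariate. Pparg was 0.14 with array weights, -0.20 to 0.20 with single arrays left out (above 0 without IH 19), 0.17 and 0.34 without chips 4 and 5, 0.27 without those 3 arrays and 0.24 with the epididymis covariate.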
